A study of Mus musculus with 8 samples.

Results

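The 10 transcripts described here encode the surface and proximal signalling proteins by which T cells are usually recognised. They are the CD3 chain genes Cd3d, Cd3e, Cd3g and Cd247, the kinase genes Lck and Zap70, the costimulatory receptor gene Cd28 and the co-receptor genes Cd4, Cd8a and Cd8b1. They were taken by symbol, through the GENCODE M21 annotation, from a deposited table of 54018 gene identifiers, and all 10 were found once. The 8 libraries were made from polyadenylated RNA of spleen mononuclear cells of leukaemic C57BL/6 mice. In 4 of them, labelled Kdm1aKD;Eµ-TCL1A (replicates 1, 2, 5 and 4, called knockdown here), a doxycycline-inducible construct was present that lowers the histone demethylase Kdm1a, and the mice were given doxycycline. The other 4, labelled Eµ-TCL1A (replicates 1 to 4, called control), carried the leukaemia transgene alone, and the labels do not say whether doxycycline was given. All 8 therefore carry Eµ-TCL1A, which drives the oncogene TCL1A in B cells and gives a disease like human chronic lymphocytic leukaemia. The labels do not say in which cell types the knockdown construct is active, nor whether each library is 1 mouse, so every p-value covers only the variation among these 8 libraries, part of which may be technical. The question was how the T cell transcripts of the leukaemic spleen differ when Kdm1a is lowered.

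The T cell receptor binds antigen through its variable chains but cannot signal by itself. The CD3 chains and the zeta chain encoded by Cd247 carry the tyrosine motifs that LCK phosphorylates, and ZAP-70 docks on them and passes the signal to adaptors such as LAT. CD4 and CD8 bring LCK to the receptor and recognise MHC class II and class I, and CD28 delivers the second signal. In a spleen filled with B cell leukaemia these transcripts would come mainly from the T cells that remain among the tumour cells, which was not tested here. Several have other sources as well. NK cells express Cd247, Lck and Zap70, mouse dendritic cell subsets express Cd4 or Cd8a, and B-1 cells, which share CD5 with this leukaemia, can express Lck.

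Levels were given in FPKM, a fragment count corrected for transcript length and sequencing depth. Steps between low values put the worth of a single fragment per kilobase at 0.0213 to 0.0249 FPKM, depending on the library. The lowest member value, that of Cd28 in control replicate 4, therefore stood for about 96.0 fragments per kilobase. For 1 kilobase of transcript that is a counting error of about 10.2%, and the error differs with transcript length. Kdm1a ranged over 15.5 to 21.0 FPKM in the knockdown libraries, against 21.2 to 31.1 FPKM in the controls (log2 difference −0.45, limma adjusted p = 0.223). B cell markers were detected in every library, with 9 genes summing to 1251 to 3285 FPKM in the knockdown libraries, against 3547 to 4205 FPKM in the controls, none at 0. Knockdown replicate 4 stood apart with the lowest B cell sum and an erythroid sum of 28500.1 FPKM, against 840 to 8263 FPKM in the other 7 libraries. The erythroid sum exceeded the B cell sum in 4 of the 8. Xist, the RNA of the inactive X, lay at 94.9 FPKM or above in all 4 knockdown libraries. Of the controls, replicate 1 was at 110 FPKM and the other 3 at 0.128 FPKM or less. Control replicate 1 is thus the only control of the same sex as the knockdown libraries, and group and sex can hardly be told apart.

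None of the 10 transcripts differed between the groups beyond the spread of the libraries. Every one was detected in every library and passed the filter of at least 1 FPKM in at least 4 libraries. All 10 had a higher mean in the knockdown libraries, with log2 differences between 0.10 for Cd8b1 and 0.68 for Cd247 and a median of 0.44. The median over all 12890 genes tested was 0.13, and 63.7% of those genes had a positive difference. By limma on log2(FPKM + 1), with Benjamini-Hochberg adjustment over all genes, 0 of the 10 passed an adjusted p of 0.05, where 1.74% of all genes did, 1.63% being higher and 0.109% lower in the knockdown libraries. Their adjusted p-values ran from 0.401 to 0.896. At an unadjusted p under 0.05 the count was also 0 of 10, against 19.2% of all genes. At the adjusted threshold limma without a trend or with array weights likewise called 0 of the 10. These 2 fits called 221 and 761 of the 12890 genes. The groups overlapped in all 10 transcripts, while 13.1% of all genes had groups that did not overlap. The 95% interval of 9 of the 10 differences included a doubling, a log2 difference of 1, so for those 9 a change of that size was not excluded. For Cd8b1 the upper bound was 0.87. A difference in the number of T cells and one in these RNAs per T cell cannot be told apart in such bulk libraries.

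**Figure D1:**
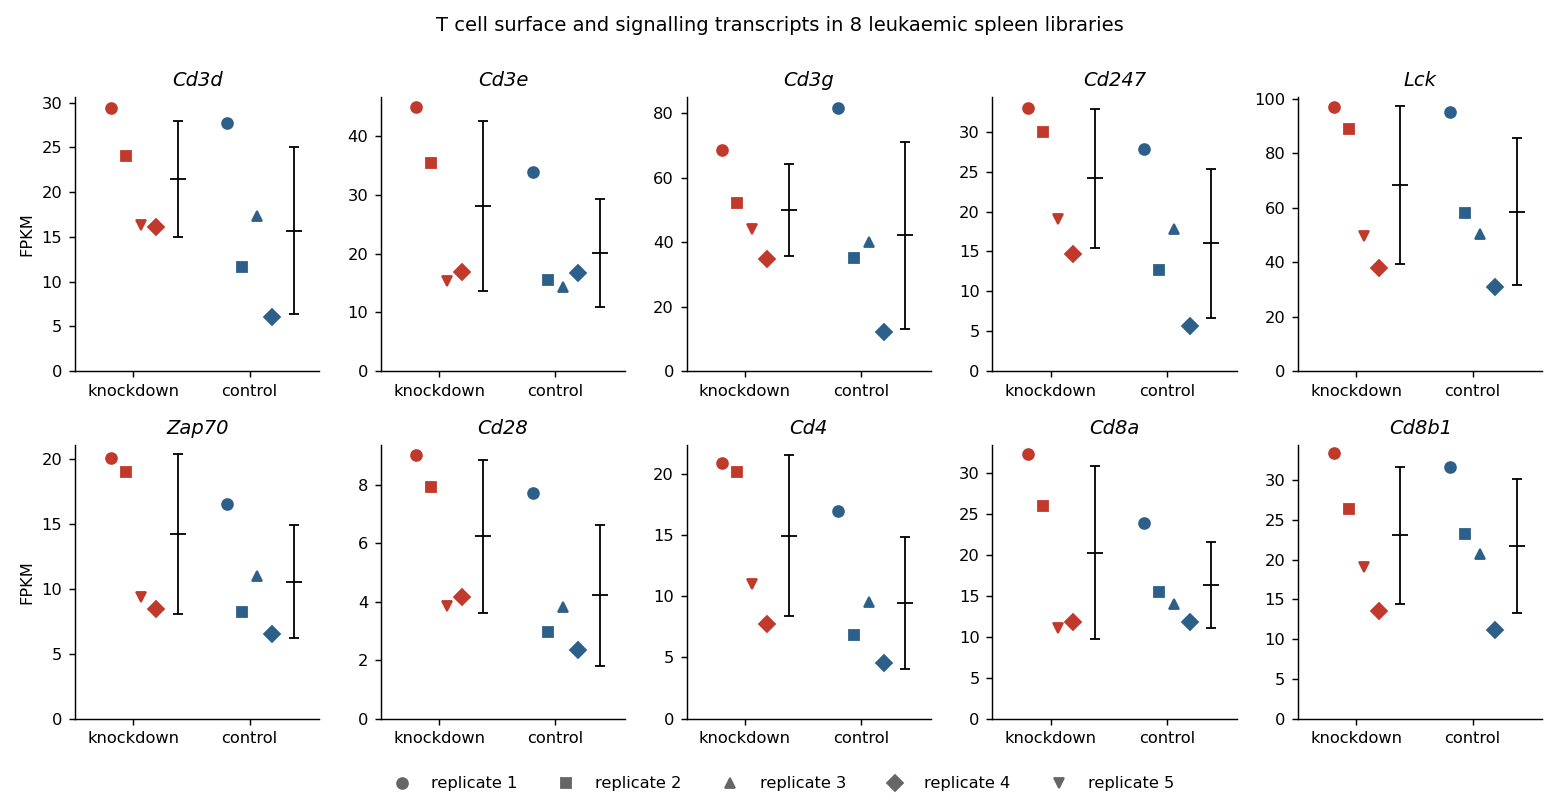
FPKM of each of the 10 T cell transcripts (vertical axes, starting at 0) in the 4 knockdown libraries (red) and the 4 control libraries (blue). Marker shapes give the replicate number, and the black bars give the group mean ± SD (n = 4). Knockdown replicates 1 and 2 and control replicate 1 are the 3 highest libraries in all 10 panels.

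The 10 transcripts varied more among the libraries within a group than between the groups. In 10 of 10 transcripts the 3 highest libraries were knockdown replicate 1, knockdown replicate 2 and control replicate 1, a pattern found in 3.93% of all genes tested. Control replicate 4 was the lowest library for 8 of the 10, the exceptions being Cd3e, lowest in control replicate 3, and Cd8a, lowest in knockdown replicate 5. That library also had the lowest column sum, 572660 FPKM, against 671732 to 762888 FPKM in the others. It was lowest for 8 of 8 NK and 7 of 9 dendritic cell markers too, but for 0 of 9 B cell and 0 of 8 erythroid markers. The share over all genes was not taken, so this low end is not shown to be particular to T cell transcripts. The summed FPKM of the 10 was 388, 330, 199 and 166 in knockdown replicates 1, 2, 5 and 4, against 363, 190, 199 and 108 in control replicates 1 to 4. When each transcript was centred on its own mean over the libraries, 87.3% of the squared log2 deviations was common to all 10. The part between the groups was 13.9%. These shares overlap, since a group difference common to the 10 counts in both. For single transcripts the share between groups ran from 0.990% for Cd8b1 to 22.8% for Cd4, beside a median of 20.1% over all genes tested. The highest library exceeded the lowest by 2.93 times for Cd8a to 6.75 times for Cd3g, where the median over all genes was 2.51 times.

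**Figure D2:**
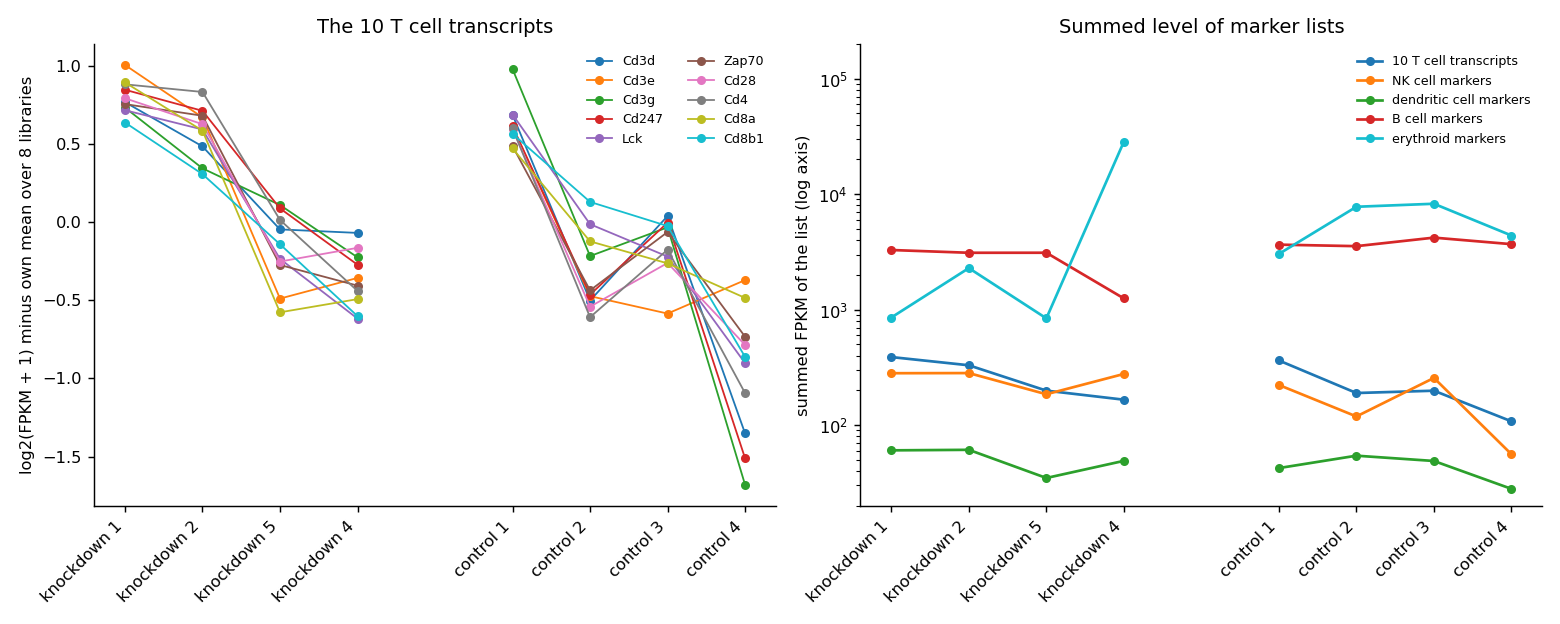
Left, log2(FPKM + 1) of each T cell transcript minus its own mean over the 8 libraries. Right, summed FPKM of 5 marker lists on a log axis. Each point is 1 library, and lines only join the points of 1 gene or list within a group. The 10 transcripts move together on the left, and on the right knockdown replicate 4 has the highest erythroid and the lowest B cell sum.

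The CD3 gamma, delta and epsilon genes lie side by side on chromosome 9 and are transcribed from 3 starts. In the GRCm38 annotation Cd3g (ENSMUSG00000002033, 44969572 to 44980431, minus strand) and Cd3d (ENSMUSG00000032094, 44981786 to 44987339, plus strand) point away from each other with 1355 bases between their starts. Cd3e (ENSMUSG00000032093, 44998740 to 45009627, minus strand) starts 27841 bases beyond that of Cd3d. Cd247 (ENSMUSG00000005763, chromosome 1, 165788681 to 165877277, plus strand) encodes the zeta chain. These 4 genes encode chains of 1 complex. The 250 bases before each RefSeq start are shown, 5′ to 3′ on the strand of the gene (GRCm38.p6). The windows are chr9:44980432-44980681 on the minus strand for Cd3g, chr9:44981536-44981785 on the plus strand for Cd3d, chr9:45009612-45009861 on the minus strand for Cd3e, and chr1:165788431-165788680 on the plus strand for Cd247. Capitals mark matches on either strand to AGGAAG, a core of ETS family sites.
Cd3g: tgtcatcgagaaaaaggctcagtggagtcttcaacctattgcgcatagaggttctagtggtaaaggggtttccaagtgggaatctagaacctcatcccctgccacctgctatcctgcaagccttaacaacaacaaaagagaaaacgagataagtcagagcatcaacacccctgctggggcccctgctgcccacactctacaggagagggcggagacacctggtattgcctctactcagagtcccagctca
Cd3d: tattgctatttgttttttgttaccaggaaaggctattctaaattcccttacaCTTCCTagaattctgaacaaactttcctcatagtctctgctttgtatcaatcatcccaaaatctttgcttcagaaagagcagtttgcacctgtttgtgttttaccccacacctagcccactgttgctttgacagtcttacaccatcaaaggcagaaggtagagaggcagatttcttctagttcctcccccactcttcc
Cd3e: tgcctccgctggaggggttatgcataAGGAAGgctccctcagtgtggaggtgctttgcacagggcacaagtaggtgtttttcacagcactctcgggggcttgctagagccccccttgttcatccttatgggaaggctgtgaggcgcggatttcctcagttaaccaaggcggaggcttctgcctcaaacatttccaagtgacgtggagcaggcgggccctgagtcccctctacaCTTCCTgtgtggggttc
Cd247: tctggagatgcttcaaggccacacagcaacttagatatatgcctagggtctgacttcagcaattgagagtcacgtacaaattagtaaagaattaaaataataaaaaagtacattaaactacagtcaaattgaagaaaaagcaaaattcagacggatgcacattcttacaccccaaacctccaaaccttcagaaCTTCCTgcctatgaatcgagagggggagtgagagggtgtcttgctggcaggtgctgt
The core occurred in the Cd3d, Cd3e and Cd247 windows and these letters were not in that of Cd3g. RefSeq windows were at hand for 7 of the 10 genes, 10 windows in all because Lck has 2 starts there and Zap70 has 3. The ETS core was in 7 of these 10, against 29.5% of 32851 windows of the same length over the genome. An E-box of the letters CAGGTG was in 6 of 10, against 17.2%. RUNX cores (TGTGGT) were in 2 of 10, against 14.0%, and the GATA core AGATAA was in 1, against 9.99%. A TATA box (TATAAA) was in 0 of 10 windows, against 12.4%. All motifs were read on both strands, and windows of 1 gene are not independent.

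Among the CD3 chains Cd3g was the most abundant on average and had the widest range. It had 68.6, 52.2, 44.2 and 34.8 FPKM in knockdown replicates 1, 2, 5 and 4, against 81.5, 35.0, 39.9 and 12.1 FPKM in control replicates 1 to 4. Its highest and its lowest value were both in control libraries. The log2 difference was 0.48 ± 0.48 (SE; limma adjusted p = 0.601). It was −0.0026 without control replicate 4, the library at 12.1 FPKM.

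Cd3d had 29.4, 24.0, 16.3 and 16.1 FPKM in knockdown replicates 1, 2, 5 and 4, against 27.8, 11.6, 17.4 and 6.02 FPKM in control replicates 1 to 4. Control replicates 2 and 4 lay below every knockdown library, while control replicates 1 and 3 lay within their range. The log2 difference was 0.57 (95% interval −0.33 to 1.47, limma adjusted p = 0.452). It was 0.21 without control replicate 4 and 0.89 without control replicate 1.

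Cd3e had 44.9, 35.4, 15.3 and 16.9 FPKM in knockdown replicates 1, 2, 5 and 4, against 33.9, 15.5, 14.3 and 16.7 FPKM in control replicates 1 to 4. It split the libraries into 3 high ones and 5 between 14.3 and 16.9 FPKM, with both groups on either side. Its log2 difference was 0.41 (95% interval −0.46 to 1.28, limma adjusted p = 0.573), and with 1 library left out it ran from 0.15 without knockdown replicate 1 to 0.68 without control replicate 1. The span of Cd3e overlaps 2 other annotated genes, so its value is less certain where strand was not used.

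The proportion of Cd3e to the other chains varied between libraries. The ratio of Cd3e to Cd3d was 1.53, 1.47, 0.938 and 1.05 in knockdown replicates 1, 2, 5 and 4, against 1.22, 1.33, 0.821 and 2.78 in control replicates 1 to 4. Control replicate 4 was the highest, and the groups overlapped. Cd3g to Cd3d stayed between 2.17 and 2.71 in the knockdown libraries and between 2.01 and 3.01 in the controls. Of the 80 deviations of a transcript from its own mean and from its library's mean, 3 exceeded 0.5 on the log2 scale. All 3 were in control replicate 4, where Cd3g and Cd247 were 0.70 and 0.53 lower and Cd3e 0.61 higher than those 2 means give.

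Cd247 had the largest difference of the 10. It had 33.0, 29.9, 19.1 and 14.6 FPKM in knockdown replicates 1, 2, 5 and 4, against 27.9, 12.7, 17.9 and 5.64 FPKM in control replicates 1 to 4. Control replicates 2 and 4 were below every knockdown library. The log2 difference of 0.68 had a 95% interval of −0.29 to 1.65 (limma adjusted p = 0.401). Without control replicate 4 it was 0.29, and without control replicate 1 it was 1.002. Its ratio to Cd3d was narrow, 0.912 to 1.25 in the knockdown libraries and 0.937 to 1.09 in the controls. The span of Cd247 overlaps 6 annotated genes.

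Lck, the kinase that starts receptor signalling (ENSMUSG00000000409, chromosome 4, 129548344 to 129573641, minus strand), was the most abundant of the 10 per length in all 8 libraries. It had 96.8, 88.8, 49.6 and 37.9 FPKM in knockdown replicates 1, 2, 5 and 4, against 94.97, 58.0, 50.1 and 30.9 FPKM in control replicates 1 to 4. The means were 68.3 ± 28.9 FPKM in the knockdown libraries, against 58.5 ± 26.8 FPKM in the controls (SD, n = 4 each). The log2 difference was 0.23 (95% interval −0.64 to 1.09, limma adjusted p = 0.769), and −0.04 without control replicate 4.

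Zap70, the kinase that binds the phosphorylated chains (ENSMUSG00000026117, chromosome 1, 36761798 to 36782818, plus strand), had the same 3 highest libraries. It had 20.1, 19.0, 9.33 and 8.42 FPKM in knockdown replicates 1, 2, 5 and 4, against 16.5, 8.23, 10.95 and 6.52 FPKM in control replicates 1 to 4. Its log2 difference was 0.38 (95% interval −0.41 to 1.16, limma adjusted p = 0.566), and with 1 library left out it ran from 0.19 without knockdown replicate 1 to 0.60 without control replicate 1. In human chronic lymphocytic leukaemia ZAP70 can be expressed by the tumour cells themselves, and these bulk libraries do not show which cells the transcript came from.

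Cd28, the costimulatory receptor (ENSMUSG00000026012, chromosome 1, 60716800 to 60773359, plus strand), was the least abundant member in all 8 libraries. It had 9.003, 7.92, 3.85 and 4.16 FPKM in knockdown replicates 1, 2, 5 and 4, against 7.72, 2.97, 3.82 and 2.35 FPKM in control replicates 1 to 4. The log2 difference of 0.50 (95% interval −0.29 to 1.28, limma adjusted p = 0.446) is understated by the added 1 at such levels, and was 0.60 with an added 0.1. With 1 library left out it ran from 0.32 without knockdown replicate 1 to 0.78 without control replicate 1.

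Cd4 and the CD8 chains are the co-receptor transcripts, and their ratio alone does not give the balance of helper and cytotoxic T cells. Cd4 (ENSMUSG00000023274, chromosome 6, 124864692 to 124888221, minus strand) had 20.9, 20.1, 10.99 and 7.76 FPKM in knockdown replicates 1, 2, 5 and 4, against 17.0, 6.79, 9.51 and 4.57 FPKM in control replicates 1 to 4. Control replicates 2 and 4 lay below the knockdown range. The log2 difference was 0.64 (95% interval −0.27 to 1.55, limma adjusted p = 0.402). It was 0.38 without control replicate 4 and 0.95 without control replicate 1.

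Cd8a (ENSMUSG00000053977, chromosome 6, 71373427 to 71379173, plus strand) encodes the alpha chain, which pairs with itself or with the beta chain. It had 32.4, 25.9, 11.1 and 11.8 FPKM in knockdown replicates 1, 2, 5 and 4, against 23.9, 15.5, 14.0 and 11.8 FPKM in control replicates 1 to 4. The knockdown libraries held both the 2 highest values and the lowest. Its log2 difference was 0.20 (95% interval −0.61 to 1.02, limma adjusted p = 0.781), and −0.06 without knockdown replicate 1.

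Cd8b1 (ENSMUSG00000053044, chromosome 6, 71322788 to 71337494, plus strand) encodes the beta chain, which is largely restricted to conventional CD8 T cells. It had 33.4, 26.3, 19.0 and 13.6 FPKM in knockdown replicates 1, 2, 5 and 4, against 31.7, 23.2, 20.7 and 11.2 FPKM in control replicates 1 to 4. Both groups spanned nearly the same range. Its log2 difference was 0.10 (95% interval −0.68 to 0.87, limma adjusted p = 0.896), and −0.06 after median-of-ratios scaling or quantile normalization.

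**Figure D3:**
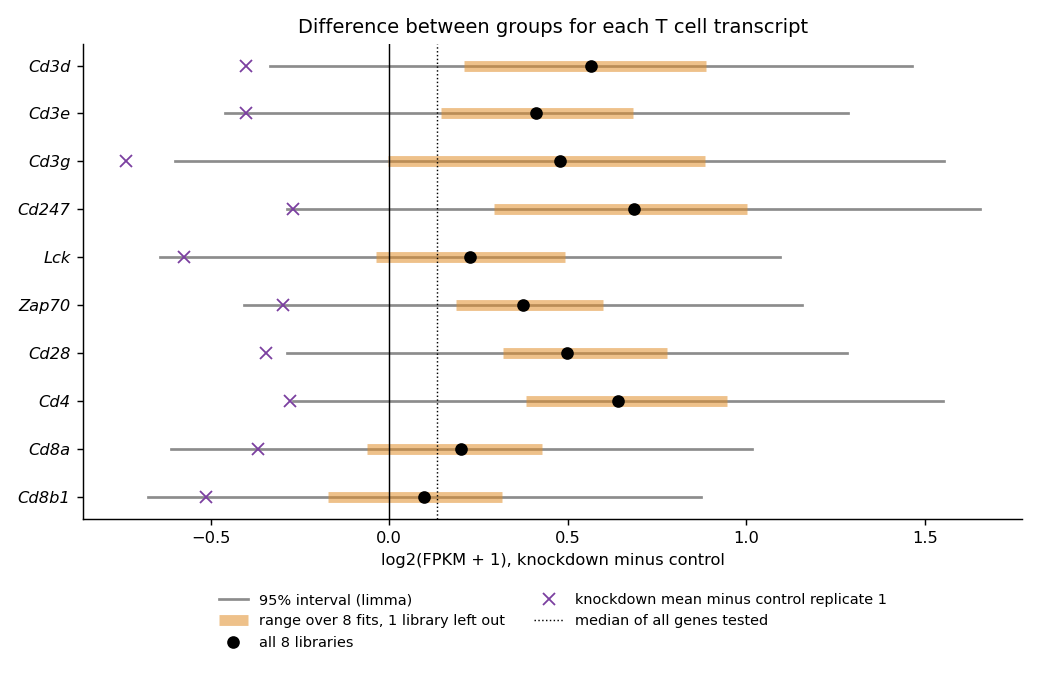
Difference in log2(FPKM + 1), knockdown minus control, for each T cell transcript (horizontal axis). Black points are the fit on all 8 libraries, grey lines its 95% interval, orange bars the range over 8 fits with 1 library left out, and crosses the knockdown mean minus control replicate 1. All 10 intervals include 0, and all 10 crosses lie below 0.

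The sign of all 10 differences depended on which controls were used. Against control replicate 1 alone, the control of the same sex, the knockdown mean was lower in 10 of 10 transcripts, by 0.27 for Cd247 to 0.74 for Cd3g on the log2 scale. A single control library gives no test. The other 3 controls all have Ddx3y, a Y-linked gene, at 11.6 to 31.5 FPKM, and it is listed at 0 in the remaining 5 libraries.

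The ratio of Cd4 to the CD8 genes was higher on average in the knockdown libraries. Cd4 to Cd8a was 0.644, 0.776, 0.994 and 0.659 in knockdown replicates 1, 2, 5 and 4, against 0.710, 0.438, 0.681 and 0.385 in control replicates 1 to 4. The groups overlapped, and the log2 difference of 0.49 gave p = 0.171 in a two-sided exact permutation test over 70 assignments. With Cd8b1 in place of Cd8a, an alternative to that ratio, the values were 0.625, 0.765, 0.577 and 0.571 in knockdown replicates 1, 2, 5 and 4. They were 0.536, 0.293, 0.459 and 0.409 in control replicates 1 to 4.

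The Cd4 to Cd8b1 ratio did not overlap between the groups, the lowest knockdown value being 0.571 and the highest control value 0.536. Separation of the groups was not rare, since 13.1% of all single genes tested did not overlap either. No such share was taken over ratios of genes. The ratio set out as the main one was that of Cd4 to Cd8a. The means were 0.635 ± 0.0900 in the knockdown libraries and 0.424 ± 0.102 in the controls (SD, n = 4 each). The log2 difference was 0.60 with an exact permutation p = 0.0286, the smallest that 4 against 4 libraries allow. With the sum of both CD8 genes the log2 difference was 0.55 and the exact permutation p also 0.0286, but knockdown replicate 4 and control replicate 1 were then nearly equal at 0.306 and 0.305. Over the 3 ratios the Benjamini-Hochberg adjusted exact permutation p was 0.171 for Cd8a and 0.0429 for each of the other two. Leaving out 1 library gave log2 differences of Cd4 to Cd8b1 from 0.43 to 0.72. Since the groups do not overlap, their exact permutation p could then only be 1 of the 2 smallest that the 35 assignments allow, 0.0286 and 0.0571. Against control replicate 1 alone, the control of the same sex, the log2 difference was smaller for each ratio, a comparison with no test. It was 0.23 for Cd4 to Cd8b1, 0.16 for Cd4 to the CD8 sum and 0.09 for Cd4 to Cd8a.

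**Figure D4:**
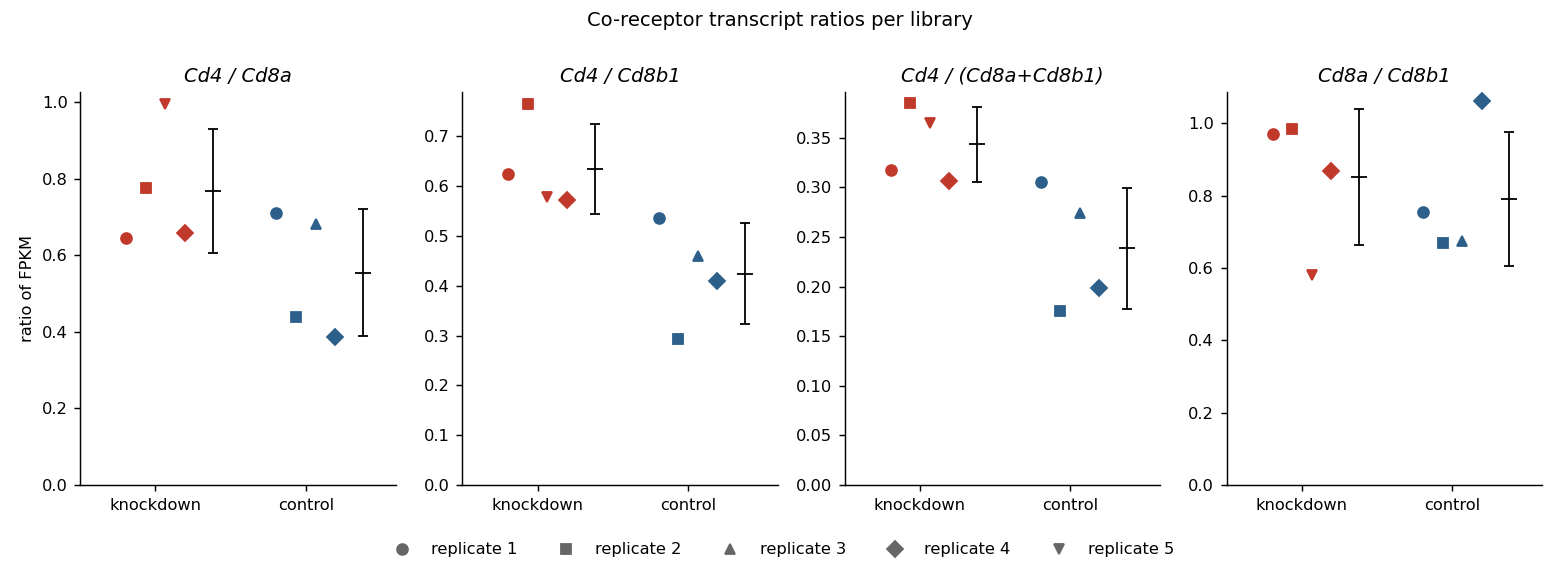
Ratios of FPKM between co-receptor transcripts in each library (vertical axes, starting at 0), knockdown in red and control in blue. Marker shapes give the replicate number and black bars the group mean ± SD (n = 4). The Cd4 to Cd8b1 panel shows no overlap, with knockdown libraries at 0.571 or more and controls at 0.536 or less.

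The CD8 chains were themselves not in a fixed proportion. Cd8a to Cd8b1 was 0.971, 0.985, 0.581 and 0.868 in knockdown replicates 1, 2, 5 and 4, against 0.755, 0.669, 0.674 and 1.06 in control replicates 1 to 4. Knockdown replicate 5 and control replicate 4 were the extremes. Dendritic cell markers, whose cells can carry Cd4 or Cd8a, were all detected, and 9 of 9 passed the filter. Of these 7 had positive differences, with a median of 0.22 and a range from −0.61 to 1.43 on the log2 scale. Their summed level was 34.8 to 61.1 FPKM in the knockdown libraries, against 28.0 to 54.3 FPKM in the controls. Among them Zbtb46, a transcription factor of conventional dendritic cells, averaged 6.19 ± 3.35 FPKM in the knockdown libraries, against 1.497 ± 0.399 FPKM in the controls (SD, n = 4 each; limma adjusted p = 0.0532). It was highest in knockdown replicate 4, at 10.9 FPKM, as were the erythroid genes Klf1 and Epor. The part of these cells in the co-receptor ratios was not tested.

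Further genes were read as lists of T cell and neighbouring cell types. With limma as above, 0 members of these 10 lists passed the threshold in either direction. At an unadjusted p under 0.05, passed by 19.2% of all genes, there were 5 of 21 signalling partners, 3 of 4 gamma delta, 1 of 8 NK, 1 of 9 dendritic cell, 2 of 8 erythroid and 5 of 7 myeloid genes. There were 0 of 14 T lineage, 8 CD4 lineage, 7 CD8 lineage and 9 B cell genes. With array weights, where 5.19% of all genes were higher past the adjusted threshold, it was passed by 1 signalling partner (Fyb), 2 gamma delta (Trgc1 and Trgc2), 1 dendritic cell (Zbtb46), 2 erythroid and 1 myeloid gene, all higher in the knockdown libraries, while limma without a trend called 0. Other settings called at most 2 members of a list. In the T lineage list 0 of 14 members passed the threshold in either direction, and their median log2 difference was 0.51. In 12 of the 14 the 3 highest libraries were again knockdown replicates 1 and 2 and control replicate 1. That held for 7 of 21 signalling partners, 4 of 8 CD4 lineage, 3 of 8 CD8 lineage and 1 of 5 gamma delta genes. Over all genes tested it was 3.93%. Ms4a4b, a membrane protein of T cells, averaged 98.2 ± 34.4 FPKM in the knockdown libraries, against 55.6 ± 35.3 FPKM in the controls (SD, n = 4 each; limma adjusted p = 0.266). Trbc1, a constant segment of the receptor beta chain that is nearly identical to Trbc2, averaged 62.0 and 37.96 FPKM in the knockdown and control libraries (limma adjusted p = 0.339).

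Of the 21 signalling partners of the receptor, 0 passed and 13 had a positive difference. The median log2 difference was 0.30, with a range from −1.04 to 0.97. Fyb, an adaptor that links the receptor to adhesion, averaged 45.9 ± 11.4 FPKM in the knockdown libraries, against 23.2 ± 7.95 FPKM in the controls (SD, n = 4 each; limma adjusted p = 0.106). Ptpn22, a phosphatase that opposes LCK and ZAP-70, had the opposite sign. It averaged 113 ± 39.7 FPKM in the knockdown libraries, against 225 ± 51.7 FPKM in the controls (SD, n = 4 each; limma adjusted p = 0.140). The groups did not overlap, as was so for 13.1% of all genes tested. Of the other list genes named here, Fcer1g, Zbtb46, Epor, Klf1, Fcgr1 and Mpo did not overlap either. B cells express Ptpn22 as well.

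Among CD4 lineage genes 0 of 8 passed, with a median log2 difference of 0.29. Ikzf2, the Helios gene of regulatory T cells, averaged 2.36 ± 1.06 FPKM in the knockdown libraries, against 1.13 ± 0.687 FPKM in the controls (SD, n = 4 each; limma adjusted p = 0.264). Zbtb7b, which encodes the CD4 lineage factor ThPOK, averaged 26.9 ± 7.96 and 33.8 ± 3.37 FPKM in the knockdown and control libraries (SD, n = 4 each; limma adjusted p = 0.409). Among CD8 lineage genes 7 of 8 passed the expression filter and 0 the threshold, with a median of 0.46. The median of the CD4 lineage list was thus not above that of the CD8 lineage list. These medians of 8 and 7 genes are a different measure from the ratios of Cd4 to the CD8 genes within a library. Which cells the list genes came from was not tested. The chemokine gene Ccl5 averaged 260 and 176 FPKM in the knockdown and control libraries, and Runx3, the CD8 lineage factor, 8.99 and 5.92 FPKM (limma adjusted p = 0.387 and 0.423). Gamma delta T cell genes had a median of 0.99, with 4 of 5 measured above the filter and 0 past the threshold. Trgc1, a constant gene of the gamma chain with near-identical copies, had 9.04, 11.6, 4.44 and 28.7 FPKM in knockdown replicates 1, 2, 5 and 4. It had 4.59, 1.19, 2.01 and 1.34 FPKM in control replicates 1 to 4 (limma adjusted p = 0.0840). The highest value was in knockdown replicate 4, where the summed T cell level was the second lowest of the 8 libraries. Trgc2 averaged 6.37 and 2.20 FPKM in the knockdown and control libraries (limma adjusted p = 0.124).

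NK cell markers shared the low end of the T cell transcripts but mostly not the high end. Control replicate 4 was lowest for 8 of 8. The low end was not limited to these 2 kinds of cell, since that library was lowest for 7 of 9 dendritic cell and 4 of 8 myeloid markers. It was lowest for 0 of 9 B cell and 0 of 8 erythroid markers. Of 8 markers, all detected and above the filter, 0 passed the threshold and the median log2 difference was 0.54. Their summed level was 185 to 282 FPKM in the knockdown libraries, against 55.9 to 256 FPKM in the controls. It was 256 FPKM in control replicate 3, above control replicate 1 at 223 FPKM, whereas the T cell sum was 199 and 363 FPKM in these libraries. The pattern of the 3 highest libraries held for 2 of the 8. Fcer1g, a signalling chain of NK and myeloid cells, averaged 120 and 59.5 FPKM in the knockdown and control libraries, and the receptor gene Klrb1c 11.9 and 8.88 FPKM (limma adjusted p = 0.162 and 0.459). The part of NK cells in Cd247, Lck and Zap70 was not tested.

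As a percentage of the B cell marker sum, the CD3 sum was higher on average in the knockdown libraries, with overlap. The sum of Cd3d, Cd3e and Cd3g was 4.35%, 3.59%, 2.44% and 5.42% of the B cell sum in knockdown replicates 1, 2, 5 and 4. It was 3.92%, 1.75%, 1.70% and 0.943% in control replicates 1 to 4. The highest value belonged to knockdown replicate 4, which had the lowest B cell sum. Its CD3 sum was 67.8 FPKM, within the control range of 34.8 to 143 FPKM. All 9 B cell markers had negative differences, with a median of −0.63 and 0 past the threshold (Cd79a, 716 and 1094 FPKM in the knockdown and control libraries, and Blk, 243 and 364 FPKM). Without knockdown replicate 4 the median was −0.27 and 6 of the 9 were negative, Cd79a being at −0.38 and Blk at −0.33. With the B cell level as a covariate the 10 T cell differences were between 0.43 and 1.02, and 0 passed. The 7 myeloid markers above the filter, of 8, were all positive with a median of 1.07. Their summed level was 239 to 588 FPKM in the knockdown libraries, against 59.9 to 239 FPKM in the controls, with 1 marker at 0 in a library. Fcgr1 and Mpo, with adjusted p of 0.0586 and 0.0830 by limma, had the smallest p among them. The erythroid list had a median of −1.005 with 0 of 8 past the threshold, although Epor and Klf1 were at 2.02 and 2.05 (limma adjusted p = 0.0732 and 0.0922).

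Cd96, Prkch, Themis and Ctla2b were among the 5 genes whose levels over the 8 libraries were most like the mean of Cd3d, Cd3e and Cd3g by Pearson's r, and the other one is not described here. The r was 0.985 for Cd96, a receptor of T and NK cells, 0.980 for Prkch, a protein kinase C gene, 0.979 for Themis, a T cell receptor signalling protein, and 0.971 for Ctla2b. Of all genes tested 0.985% reached an r of 0.9, as did 7 of the 10 members, among them Cd3d and Cd3g, which are part of that mean. Cd96 had 9.90, 9.40, 5.55 and 5.41 FPKM in knockdown replicates 1, 2, 5 and 4, against 9.32, 4.07, 5.41 and 2.07 FPKM in control replicates 1 to 4. Among the members r was lowest for Cd3e, although it is part of the mean, and for Cd8a, at 0.839 and 0.848, the pair that stayed higher than the others in control replicate 4.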

How the data were processed

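RNA abundance in 8 spleen libraries was taken as FPKM from 1 table that the authors deposited. CASAVA and Cufflinks appear in the submitters' processing notes with no version. Which aligner, build, annotation and strand setting they used is not given in the sources used here. Of 54018 identifiers, 53951 matched the GENCODE M21 annotation (GRCm38), the source of the coordinates. Column sums were 671732 to 762888 FPKM, apart from control replicate 4 at 572660. Depth was estimated from genes with a single annotated transcript, where 96.3% to 97.5% of low values lay within 5% of whole fragments, and gave 40200000 to 46900000 fragments per library. Counting errors cover sampling only.

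Genes reaching 1 FPKM in 4 or more libraries were tested on log2(FPKM + 1) by limma 3.58.1 (R 4.3.3, trended prior variance), two-sided, without covariates, and Benjamini-Hochberg adjustment over 12890 genes. The fit was tested on simulated data. Ratios, with 0.1 added to each gene before the logarithm, were tested by exact permutation. Plots used Python 3.11.15 and matplotlib 3.10.9. Motif matches came from RefSeq promoter windows. The members and lists were chosen with earlier results of these data known. Named were the members, Kdm1a, the 2 smallest p of each of 10 lists, and the 5 genes most like the mean of the CD3 genes, some of which are not reported here. Alternatives changed pseudocount, filter, scaling, weights, covariates, block and libraries.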

Additional observations from a re-analysis of the deposited data

How the results depend on the processing

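None of the 10 T cell transcripts passed the threshold under any of 20 alternatives, with adjusted p-values of 0.219 or more. Their values kept the sign in 183 cases and not in 17. With sex as a covariate the log2 differences were −0.40 for Cd3d, −0.40 for Cd3e, −0.74 for Cd3g, −0.27 for Cd247, −0.57 for Lck, −0.30 for Zap70, −0.34 for Cd28, −0.28 for Cd4, −0.37 for Cd8a and −0.51 for Cd8b1. Those of Ms4a4b, Trbc1 and Klrb1c were −0.14, −0.13 and −0.28. By construction this fit compares the knockdown mean with control replicate 1 alone. Cd8b1 was at −0.060 after median-of-ratios scaling and −0.061 after quantile normalization, which put the median of all genes at −0.01 (median of ratios) and −0.03 (quantile) instead of 0.13. With 1 library left out, Cd3g ranged from −0.0026 to 0.88, Cd8a from −0.061 to 0.43, Cd8b1 from −0.17 to 0.32 and Lck from −0.038 to 0.49. Among all genes 224 passed. With an added 5 there were 24, without a filter 2, after quantile normalization 126, with a mean of 5 FPKM or more required 71, with array weights 761, without both replicate 4 libraries 120, with sex as a covariate 2 and with the B cell level as a covariate 90. Leaving out 1 library gave 8 to 333, the lowest without control replicate 4. The Cd4 to Cd8a difference of 0.49 became 0.60 with Cd8b1 and 0.55 with the sum of both as denominator, both with an exact permutation p of 0.0286, and was 0.34 to 0.63 with 1 library left out. That of Cd4 to Cd8b1, whose alternatives were chosen after seeing the data, was 0.64 without both replicate 4 libraries (exact permutation p = 0.1, the smallest possible for 3 against 3) and 0.43 to 0.72 with 1 left out. With control replicate 1 as the only control it was 0.23, with no test. In the unchanged fit 0 list members passed the threshold. An added 0.1 gave 1 dendritic cell gene, while 242 passed among all genes. Dropping knockdown replicate 1 gave 1 dendritic cell, 2 erythroid and 1 myeloid gene, while 317 passed among all genes. It was 1 erythroid gene, beside 203 among all genes, when knockdown replicate 4 was dropped. Dropping knockdown replicate 5 gave 1 gamma delta gene, beside 333 among all genes. No test compared the lists with all genes in these settings. The cause of these changes was not tested. Numbers 1, 2 and 4 occur in both groups, but same-numbered libraries had correlations of deviations of 0.16, 0.05 and −0.12, so they were not taken as pairs. A replicate block draws on replicates 1, 2 and 4 alone, since knockdown replicate 5 and control replicate 3 have no partner. With so few libraries it has little power. It left 0 genes past the threshold, and the Cd4 to Cd8a difference at 0.48 (exact permutation p = 0.5).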
